A study of Mus musculus with 70 samples.

Results

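The comparison described here is that of the hypothyroid response in striatum with the hypothyroid response in cerebral cortex. Its members were chosen by label, and are the 28 of the 70 RNA-sequencing libraries of the series that come from the hypothyroid and the untreated wild-type mice. There were 7 libraries in each of 4 groups: striatum MMI, striatum WT, cortex MMI and cortex WT. MMI denotes male wild-type C57BL/6J mice made hypothyroid through the drinking water of the dams, which held 0.02% methimazole and 1% potassium perchlorate from embryonic day 9 to postnatal day 21, and sampled at postnatal days 21 to 23. Methimazole blocks thyroid hormone synthesis and perchlorate blocks uptake of iodide into the thyroid. WT denotes untreated wild-type mice, for which the labels state neither age nor sex. All 4 groups share the wild-type genotype, and the other 42 libraries are double-knockout lines and a further set of wild-type controls called WTa.

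Thyroid hormone reaches the brain through membrane transporters, and the active form T3 is made there from T4 by the deiodinase Dio2 and broken down by Dio3. T3 binds the nuclear receptors encoded by Thra and Thrb, which switch target genes on or off, so that hypothyroidism lowers some transcripts and raises others. The late fetal and early postnatal period is when the hormone is known to be needed for myelination, for the maturation of parvalbumin interneurons in cortex and for that of striatal projection neurons.

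Each library held between 8660325 and 22485839 counts in genes. Values are CPM, counts scaled to a common library size with TMM, a method that corrects for library composition, and log2 changes are given with standard errors from edgeR's quasi-likelihood fit. A gene is called where its Benjamini-Hochberg adjusted p over all 16357 genes tested is under 0.05. The labels do not say that the 7 libraries of a group came from separate animals, and p-values then measure the spread between these samples, which may be technical. No 2 libraries of a group repeated each other: the smallest chi-square over degrees of freedom in 84 pairs was 3.27.

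The labelled tissues carried their markers. Drd1, the dopamine receptor of direct-pathway striatal neurons, measured 192 to 268 CPM (median 237) in striatum MMI libraries, against 250.4 to 339 CPM (median 296) in striatum WT libraries. In cortex Drd1 measured 16.2 to 23.5 CPM (median 20.8) in cortex MMI libraries, against 12.7 to 29.99 CPM (median 19.5) in cortex WT libraries. Slc17a7, the vesicular glutamate transporter of cortical neurons, measured 59.8 to 377 CPM (median 112) in striatum MMI libraries, against 111 to 389 CPM (median 150.1) in striatum WT libraries. In cortex Slc17a7 measured 1407 to 2083 CPM (median 1802) in cortex MMI libraries, against 1489 to 2042 CPM (median 1993) in cortex WT libraries.

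Libraries of a group varied in several measures. On an axis of 427 genes at least 4-fold apart in the WT tissues, libraries were placed between the cortex WT mean at 0 and the striatum WT mean at 1. Striatum MMI libraries lay at 0.761 to 0.960 (median 0.899), against 0.899 to 1.06 (median 1.01) for striatum WT libraries. Striatum MMI 1 and 7 were the nearest to cortex, at 0.761 and 0.806. Cortex MMI libraries lay at -0.118 to 0.0328, against -0.141 to 0.0959 for cortex WT libraries. Summed CPM of 17 choroid plexus and ependyma genes was 447 to 4175 in striatum MMI libraries, of which 2 and 7 were the lowest, against 3367 to 7604 in striatum WT libraries. In cortex the same sum was 209.8 to 529 in MMI libraries and 284 to 1858 in WT libraries, of which 6 and 9 were the highest. Reads counted under no gene feature made up 13.3% to 14.6% in striatum MMI, against 11.2% to 12.2% in striatum WT. In cortex they made up 13.2% to 15.1% in MMI, against 11.4% to 13.8% in WT. The counts do not say whether these reads lay within or between genes. In bulk tissue, fewer cells of a type and less RNA per cell cannot be told apart.

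**Figure D1:**
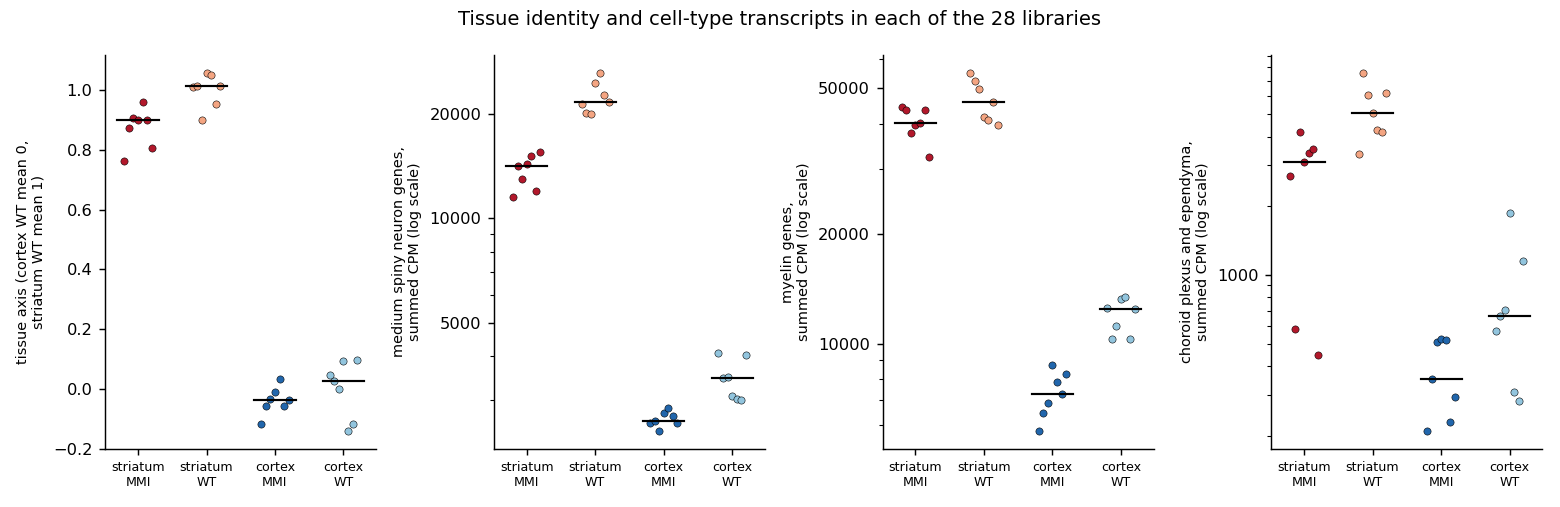
Position on the tissue axis (cortex WT mean 0, striatum WT mean 1) and summed CPM on log scales of 3 marker lists. Each point is a library, bars are medians and groups run from striatum MMI to cortex WT; striatum MMI libraries lay at 0.761 to 0.960 on the axis, and 2 of them held the fewest choroid plexus transcripts of the striatum libraries.

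Genes called in both tissues mostly moved the same way. MMI libraries differed from WT libraries at 6645 genes in striatum (40.6% of genes tested, 3134 higher and 3511 lower) and at 6498 genes in cortex (39.7%, 3197 higher and 3301 lower). Of the 4309 genes called in both tissues, 4169 moved the same way. The interaction, the striatal log2 change minus the cortical one, was called for 1322 genes, which is 8.08% of those tested. It was positive, with a higher change in striatum, for 584 genes (3.57%) and negative for 738 (4.51%), and its size was at least 1 for 179 genes. For 3014 of the 3840 genes called alike in both tissues without an interaction call, the 95% interval of the interaction lay within 0.5 of zero. The number of interaction calls depended on the libraries that set the spread between replicates. A fit with all 70 libraries gave 418. One with the 68 that lay on their labelled tissue's side of a second tissue axis, chosen after seeing the data, gave 839. That axis had 425 genes and was built over all 70 libraries. Of the 130 genes named by rule that had an interaction call, 58 did not pass in the fit with 70 libraries and 19 did not pass in that with 68. Thra, Mag, Nkx6-2, Pdyn, Scn4b, Tgfa, Gls2 and B2m are among the 58 and passed with 68, and Npy, Cartpt, Stra6, Crtac1 and Cd24a passed with neither.

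A call in one tissue and not in the other seldom meant a called difference between them. Of 2336 genes called in striatum and not in cortex, 431 (18.5%) had an interaction call, and of 2189 called in cortex and not in striatum, 412 (18.8%) had one. These 431 and 412 genes are the striatum-only and cortex-only responses. In 351 of the 431 the 95% interval of the cortical change lay within 0.5 of zero, and in 361 of the 412 that of the striatal change did. A further 140 genes, the opposite responses, were called in both tissues with unlike signs, 62 of them higher in striatum and lower in cortex, and 78 the other way round. In the graded responses the changes had like signs and differed in size, 187 genes being larger in striatum (40 higher, 147 lower) and 142 larger in cortex (38 higher, 104 lower). The remaining 10 had an interaction call and no call within either tissue.

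**Figure D2:**
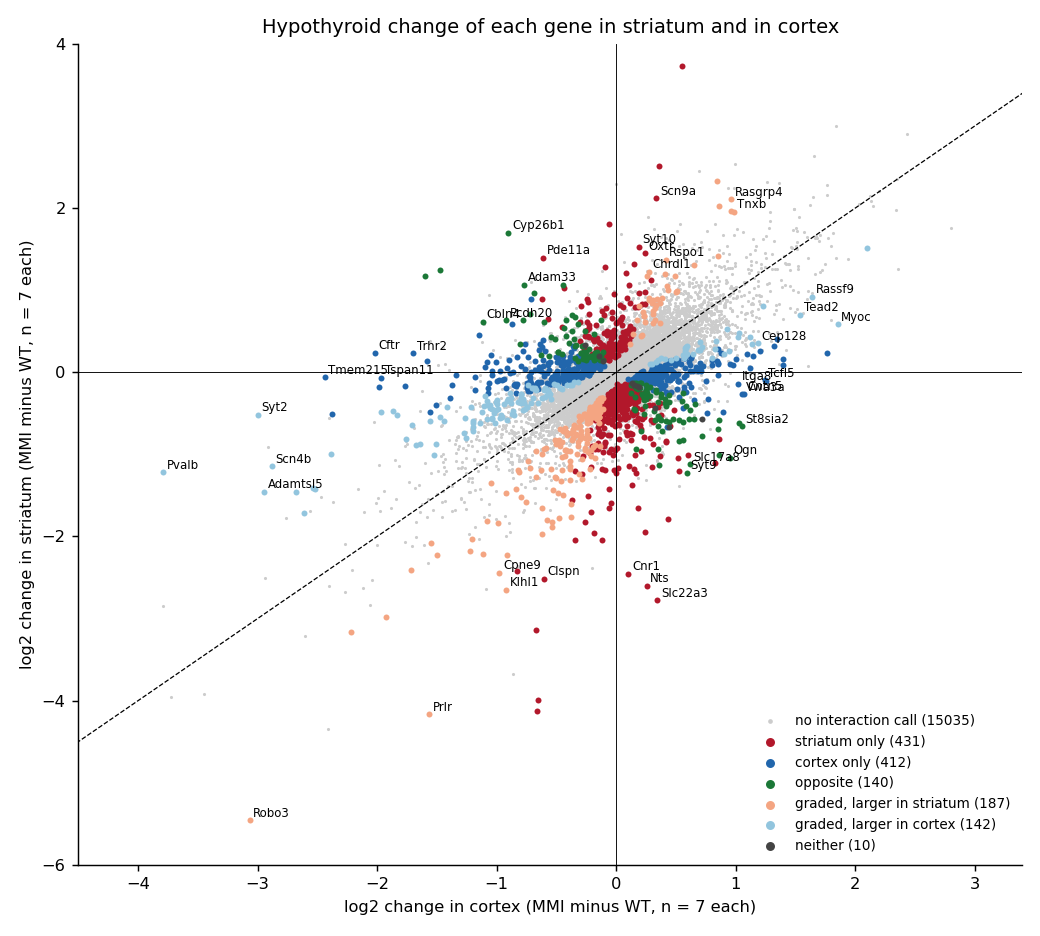
Log2 change (MMI minus WT) of each of the 16357 genes in striatum (vertical axis) against that in cortex (horizontal axis), from 7 libraries per group. Colours mark the 1322 genes with an interaction call by class, grey points have none, and the dashed line marks equal changes; green points in the upper left and lower right are the 140 genes with opposite changes.

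Among listed genes that carry, convert and bind thyroid hormone, Thra alone had an interaction call, beside the corepressor Hr on the same list. Slco1c1, which encodes the T4 transporter OATP1C1, measured 0.16 ± 0.063 in striatum and 0.40 ± 0.063 in cortex, and its interaction of -0.23 ± 0.090 did not pass (adjusted p = 0.117). The Slco1c1 interaction log2 change passed without the library cortex WT 6 (-0.27, adjusted p = 0.0422). Dio2 measured 188 to 235 CPM (median 200.3) in striatum MMI libraries, against 88.9 to 137 CPM (median 109) in striatum WT libraries. In cortex Dio2 measured 277 to 387 CPM (median 317) in cortex MMI libraries, against 151 to 202 CPM (median 171) in cortex WT libraries. The MMI libraries lay above all WT libraries in both tissues, and the interaction was 0.060 ± 0.12 (adjusted p = 0.87, 95% interval -0.18 to 0.30). Dio3 was scarce, at 0 to 0.754 CPM (median 0.3197) in striatum MMI and 0.464 to 1.02 CPM (median 0.652) in striatum WT libraries. In cortex Dio3 measured 0.223 to 3.74 CPM in MMI libraries, highest in cortex MMI 5, against 1.55 to 3.85 CPM in WT libraries. Its interaction was 0.044 ± 0.93.

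Among the receptors, Thra (ENSMUSG00000058756, chromosome 11, 98740638 to 98769006, GRCm38) rose more in cortex than in striatum. It measured 703 to 803 CPM (median 743) in striatum MMI libraries, against 589 to 642 CPM (median 607) in striatum WT libraries. In cortex it measured 1158 to 1365 CPM (median 1208) in cortex MMI libraries, against 742 to 939 CPM (median 809.6) in cortex WT libraries. The groups did not overlap in either tissue, and the change was 0.30 ± 0.049 in striatum and 0.57 ± 0.049 in cortex, with an interaction of -0.27 ± 0.070 (adjusted p = 0.00986). Thra overlaps Nr1d1 on the other strand, and the unstranded reads of the overlap cannot be assigned. The same holds for Tcfl5, Ogn, Rasgrp4, Tead2, Vamp1, Nkx6-2, B2m, Gabra5, Stra6, Tagln, Pfkp, Cacna1h and Cacna2d3, which overlap other annotated genes. Thrb fell in both tissues, by 0.42 and 0.23 on the log2 scale in striatum and cortex, and its interaction of -0.18 ± 0.12 was not called (adjusted p = 0.465). The 23 listed genes of hormone transport, deiodination, binding and reception also include Hr, a corepressor of nuclear receptors. Thra and Hr were the 2 with an interaction call (8.70%, near the 8.08% of all genes).

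Hr and Klf9 are transcription regulators long used as readouts of T3. Klf9 fell in both tissues, with changes of -0.73 ± 0.078 in striatum and -0.70 ± 0.078 in cortex and an interaction of -0.031 ± 0.11 (adjusted p = 0.941). Hr (ENSMUSG00000022096, chromosome 14, 70552212 to 70573548), a corepressor of nuclear receptors, measured 24.05 to 32.2 CPM (median 30.1) in striatum MMI libraries, against 68.2 to 87.4 CPM (median 73.9) in striatum WT libraries. In cortex Hr measured 15.5 to 18.3 CPM (median 16.2) in cortex MMI libraries, against 82.7 to 122 CPM (median 87.2) in cortex WT libraries. It fell in both tissues with no overlap of MMI and WT libraries, and the fall was larger in cortex: -1.41 ± 0.082 in striatum and -2.54 ± 0.086 in cortex (interaction 1.12 ± 0.12, adjusted p = 4.67e-08).

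Genes listed as induced by thyroid hormone in brain differed between the tissues in both directions. Of 35 tested, 25 fell in striatum (background 21.5% of all genes) and 27 in cortex (20.2%), and 16 (45.7%, against 8.08% of all genes) had an interaction call, 10 positive and 6 negative. The list was written with earlier results of these data known, so its count is no independent evidence, and it shares Mbp, Mag and Cnp, among others, with the myelin list. Nrgn, which encodes the calmodulin-binding protein neurogranin of dendritic spines, measured 226 to 350.1 CPM (median 249) in striatum MMI libraries, against 1065 to 1497 CPM (median 1177) in striatum WT libraries. In cortex Nrgn measured 850.1 to 1139.6 CPM (median 942) in cortex MMI libraries, against 1638 to 2010.1 CPM (median 1869) in cortex WT libraries. The fall was larger in striatum (-2.22 ± 0.092) than in cortex (-0.91 ± 0.088), with an interaction of -1.31 ± 0.12 (adjusted p = 1.16e-08). Kcnj10, the inward rectifier potassium channel of astrocytes and oligodendrocytes, went the other way and fell by 1.45 in striatum and by 2.68 in cortex (interaction 1.22 ± 0.15, adjusted p = 1.64e-06). Stac2, an adaptor of calcium channels, had changes of -0.53 ± 0.12 in striatum and -1.83 ± 0.11 in cortex (interaction 1.31 ± 0.17).

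Among 18 genes listed as repressed by the hormone, 12 rose in striatum (background 19.2% of all genes) and 14 in cortex (19.5%). An interaction was called for 4 of the 18 (22.2%, against 8.08% of all genes), all negative. Gls2, a mitochondrial glutaminase, went against the name of the list. It measured 2.399 to 5.02 CPM (median 2.99) in striatum MMI libraries, against 11.4 to 14.7 CPM (median 12.9) in striatum WT libraries. In cortex Gls2 measured 9.66 to 12.1 CPM (median 11.6) in cortex MMI libraries, against 21.4 to 31.4 CPM (median 25.8) in cortex WT libraries. It fell in both tissues and more in striatum (-2.03 ± 0.12, against -1.20 ± 0.096 in cortex; interaction -0.83 ± 0.15, adjusted p = 0.000365). Gls2 overlaps Spryd4 on the other strand. Tgfa, a ligand of the EGF receptor, changed in opposite directions in striatum and cortex: 142 to 162 CPM (median 155) in striatum MMI libraries, against 201 to 262 CPM (median 235) in striatum WT libraries. In cortex Tgfa measured 37.7 to 51.5 CPM (median 44.96) in cortex MMI libraries, against 31.6 to 40.8 CPM (median 35.9) in cortex WT libraries. It fell in striatum (-0.58 ± 0.064) and rose in cortex (0.32 ± 0.070), and the interaction was -0.90 ± 0.095 (adjusted p = 2.93e-08).

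Striatum-only responses were more often falls (291) than rises (140). Cnr1 (ENSMUSG00000044288, chromosome 4, 33924593 to 33948831), which encodes the presynaptic cannabinoid receptor CB1, was the most abundant of the leading falls. It measured 77.4 to 100.1 CPM (median 92.4) in striatum MMI libraries, against 393 to 625 CPM (median 458) in striatum WT libraries. In cortex Cnr1 measured 197 to 218 CPM (median 203) in cortex MMI libraries, against 161 to 230.2 CPM (median 184) in cortex WT libraries. The striatal groups lay far apart and the cortical groups overlapped, with a change of -2.45 ± 0.098 in striatum and 0.10 ± 0.093 in cortex (95% interval -0.088 to 0.29). Its interaction of -2.55 ± 0.13 had an adjusted p of 9.25e-14. The striatal level of Cnr1 under hypothyroidism was below the cortical one, whereas in WT it was above it.

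Nts, the gene of the neuropeptide neurotensin, measured 2.19 to 5.18 CPM (median 2.81) in striatum MMI libraries, against 14.4 to 23.04 CPM (median 19.05) in striatum WT libraries. In cortex Nts measured 1.04 to 6.46 CPM (median 2.01) in cortex MMI libraries, against 0.774 to 5.43 CPM (median 3.28) in cortex WT libraries. All 7 striatum MMI libraries were below all striatum WT libraries, while the cortical groups overlapped, and the interaction was -2.86 ± 0.53 (adjusted p = 0.000776). Slc22a3, the organic cation transporter OCT3, which carries monoamines, measured 1.46 to 4.01 CPM (median 2.65) in striatum MMI libraries, against 14.3 to 24.2 CPM (median 18.4) in striatum WT libraries. In cortex Slc22a3 measured 1.57 to 6.08 CPM (median 4.69) in cortex MMI libraries, against 1.72 to 4.699 CPM (median 3.65) in cortex WT libraries. Its interaction of -3.12 ± 0.30 (adjusted p = 1.66e-08) was the largest in size among the named striatum-only genes, and the gene overlaps Plg on the other strand. Clspn, an adaptor of the DNA replication checkpoint, measured 2.58 to 5.24 CPM (median 4.45) in striatum MMI libraries, against 19.5 to 29.97 CPM (median 25.04) in striatum WT libraries. Its change was -2.52 ± 0.20 in striatum and -0.61 ± 0.34 in cortex, where it was at or under 2.82 CPM and its interval of -1.30 to 0.088 is wide (interaction -1.91 ± 0.41, adjusted p = 0.00233).

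Scn9a (ENSMUSG00000075316, chromosome 2, 66480080 to 66634962), the alpha subunit of a voltage-gated sodium channel of peripheral and some central neurons, was a striatum-only rise. It measured 15.3 to 29.6 CPM (median 24.02) in striatum MMI libraries, against 3.42 to 6.67 CPM (median 5.58) in striatum WT libraries. In cortex Scn9a measured 3.79 to 5.44 CPM (median 4.303) in cortex MMI libraries, against 2.82 to 4.29 CPM (median 3.51) in cortex WT libraries. The lowest striatum MMI library was above the highest striatum WT library, and the change was 2.12 ± 0.13 in striatum and 0.34 ± 0.15 in cortex (interaction 1.78 ± 0.20, adjusted p = 1.43e-07). Oxtr (ENSMUSG00000049112, chromosome 6, 112473683 to 112489943), the oxytocin receptor, measured 14.2 to 19.6 CPM (median 15.8) in striatum MMI libraries, against 4.57 to 7.56 CPM (median 5.68) in striatum WT libraries. In cortex Oxtr measured 11.9 to 17.7 CPM (median 15.5) in cortex MMI libraries, against 9.502 to 15.8 CPM (median 13.8) in cortex WT libraries. The striatal range of Oxtr in MMI libraries overlapped that of both cortex groups, which the striatum WT range did not, and the interaction was 1.21 ± 0.16 (adjusted p = 2.29e-06).

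Syt10, a calcium-binding synaptotagmin of secretory vesicles, rose by 1.53 ± 0.16 in striatum without overlap and measured 0.19 ± 0.17 in cortex (interaction 1.35 ± 0.24, adjusted p = 0.000201). Pde11a, a phosphodiesterase of cyclic AMP and cyclic GMP, measured 1.23 to 4.25 CPM (median 3.58) in striatum MMI libraries, against 0.846 to 2.22 CPM (median 1.14) in striatum WT libraries. Striatum MMI 7 lay among the WT libraries and the other 6 above them. The change of Pde11a was 1.39 ± 0.28 in striatum and -0.61 ± 0.26 in cortex (interaction 2.003 ± 0.38, adjusted p = 0.00064), and the cortical estimate did not pass (adjusted p = 0.0577).

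Cortex-only responses comprised 177 rises and 235 falls. Cntn5, a contactin of neuronal contacts, measured 5.76 to 9.97 CPM (median 6.81) in striatum MMI libraries, against 7.12 to 11.9 CPM (median 7.65) in striatum WT libraries. In cortex Cntn5 measured 8.503 to 12.96 CPM (median 10.5) in cortex MMI libraries, against 3.59 to 6.23 CPM (median 4.98) in cortex WT libraries. The striatal groups overlapped and the cortical groups did not, with changes of -0.26 ± 0.13 in striatum and 1.07 ± 0.13 in cortex (interaction -1.33 ± 0.18, adjusted p = 3.69e-06). Itga8, an integrin alpha subunit, measured 13.3 to 18.6 CPM (median 15.8) in cortex MMI libraries, against 5.37 to 10.9 CPM (median 7.81) in cortex WT libraries, and its change was -0.14 ± 0.20 in striatum and 1.02 ± 0.15 in cortex (interaction -1.16 ± 0.25, adjusted p = 0.0022). Tcfl5, a basic helix-loop-helix transcription factor, and Vwa3a, a protein with a von Willebrand factor A domain, rose in cortex by 1.24 and 1.06. Their interactions were -1.34 ± 0.26 (adjusted p = 0.000593) and -1.32 ± 0.17 (adjusted p = 1.55e-06).

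Tmem215 (ENSMUSG00000046593, chromosome 4, 40472180 to 40477168), a membrane protein gene, led the cortex-only falls. In striatum it was scarce, at 0.256 to 0.959 CPM (median 0.574) in striatum MMI libraries, against 0.129 to 1.18 CPM (median 0.4499) in striatum WT libraries, and the 95% interval of its striatal change, -0.84 to 0.72, does not bound that change within 0.5. In cortex Tmem215 measured 2.52 to 5.78 CPM (median 3.45) in cortex MMI libraries, against 16.3 to 25.6 CPM (median 18.6) in cortex WT libraries. The interaction was 2.38 ± 0.43 (adjusted p = 0.0003). Tspan11, a tetraspanin, was likewise scarce in striatum, with a change of -0.066 ± 0.28 there and -1.96 ± 0.16 in cortex (interaction 1.90 ± 0.33, adjusted p = 0.00015). Cftr, a chloride channel, measured 3.07 to 5.38 CPM (median 4.42) in striatum MMI libraries, against 2.92 to 4.63 CPM (median 3.64) in striatum WT libraries. It was scarcer in cortex, at 0.0742 to 0.476 CPM (median 0.175) in cortex MMI libraries, against 0.581 to 1.23 CPM (median 0.864) in cortex WT libraries, and its interaction was 2.26 ± 0.35 (adjusted p = 2.26e-05). Trhr2, a receptor of thyrotropin-releasing hormone, measured 2.32 to 3.96 CPM (median 2.71) in striatum MMI libraries, against 1.44 to 3.31 CPM (median 2.62) in striatum WT libraries, where the groups overlapped. In cortex Trhr2 measured 0.2704 to 1.29 CPM (median 0.519) in cortex MMI libraries, against 1.33 to 2.99 CPM (median 2.06) in cortex WT libraries. Its changes were 0.23 ± 0.20 in striatum and -1.70 ± 0.25 in cortex (interaction 1.93 ± 0.32, adjusted p = 7.82e-05).

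Among the opposite responses, the 4 with the largest positive interactions by the naming rule were Cyp26b1, Adam33, Cbln4 and Pcdh20, which rose in striatum and fell in cortex and had the higher WT median in cortex. The WT medians of Pdyn, Gpr83 and Sema3e, which also rose in striatum and fell in cortex, were higher in striatum. Cyp26b1 (ENSMUSG00000063415, chromosome 6, 84571414 to 84593908), the enzyme that degrades retinoic acid, measured 5.65 to 21.04 CPM (median 11.3) in striatum MMI libraries, against 1.68 to 5.38 CPM (median 3.299) in striatum WT libraries. In cortex Cyp26b1 measured 5.59 to 14.01 CPM (median 8.71) in cortex MMI libraries, against 11.6 to 24.8 CPM (median 16.9) in cortex WT libraries. It rose in striatum (1.70 ± 0.30, no overlap) and fell in cortex (-0.90 ± 0.26, with overlap), and its interaction of 2.60 ± 0.40 had an adjusted p of 8.05e-05. Pcdh20, a protocadherin of cell adhesion, measured 16.2 to 23.3 CPM (median 20.5) in striatum MMI libraries, against 11.1 to 14.3 CPM (median 13.03) in striatum WT libraries. In cortex Pcdh20 measured 11.99 to 21.7 CPM (median 15.2) in cortex MMI libraries, against 20.4 to 36.4 CPM (median 33.1) in cortex WT libraries. Its changes were 0.63 ± 0.14 in striatum and -0.92 ± 0.13 in cortex (interaction 1.55 ± 0.19, adjusted p = 1.55e-06).

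Cbln4, a secreted cerebellin that organises synapses, measured 3.39 to 5.83 CPM (median 4.42) in striatum MMI libraries, against 1.61 to 4.73 CPM (median 2.32) in striatum WT libraries. In cortex Cbln4 measured 5.05 to 11.97 CPM (median 6.03) in cortex MMI libraries, against 14.9 to 17.4 CPM (median 16.6) in cortex WT libraries. The striatal groups overlapped and the cortical groups did not, with changes of 0.61 ± 0.22 (adjusted p = 0.0252) in striatum and -1.11 ± 0.17 in cortex and an interaction of 1.73 ± 0.28 (adjusted p = 8.04e-05). Adam33, a membrane metalloprotease, was under 1.2 CPM in striatum, where its change of 1.07 ± 0.42 (adjusted p = 0.0402) rests on few reads, and fell by 0.77 in cortex (interaction 1.84 ± 0.45, adjusted p = 0.0071). With limma voom the interaction of Adam33 did not pass (1.74, adjusted p = 0.0599).

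The 4 opposite responses with the largest negative interactions by the same rule were Ogn, Syt9, Slc17a8 and St8sia2, which fell in striatum and rose in cortex and had the higher WT median in striatum. Slc17a8 (ENSMUSG00000019935, chromosome 10, 89574020 to 89621253), the vesicular glutamate transporter VGLUT3 of cholinergic and some other interneurons, measured 6.81 to 11.1 CPM (median 9.72) in striatum MMI libraries, against 16.8 to 22.8 CPM (median 19.5) in striatum WT libraries. In cortex Slc17a8 measured 4.84 to 10.9 CPM (median 7.28) in cortex MMI libraries, against 3.98 to 5.75 CPM (median 4.76) in cortex WT libraries. Its changes were -1.12 ± 0.12 in striatum and 0.62 ± 0.14 in cortex (interaction -1.74 ± 0.18, adjusted p = 4.2e-08). Summed CPM of 10 tested cholinergic genes, Slc17a8 among them, was 182 to 274 in striatum MMI, against 218 to 275 in striatum WT libraries. The part of cell number in the change of Slc17a8 was not tested.

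Syt9, a synaptotagmin that serves as a calcium sensor of transmitter release, measured 4.58 to 9.36 CPM (median 6.99) in striatum MMI libraries, against 14.03 to 17.8 CPM (median 16.4) in striatum WT libraries. In cortex Syt9 measured 10.9 to 17.4 CPM (median 11.4) in cortex MMI libraries, against 6.19 to 10.4 CPM (median 8.503) in cortex WT libraries. MMI and WT libraries did not overlap in either tissue, and the changes of -1.22 ± 0.13 in striatum and 0.59 ± 0.13 in cortex gave an interaction of -1.82 ± 0.18 (adjusted p = 1.16e-08). St8sia2, which adds polysialic acid to the neural adhesion molecule NCAM, measured 13.2 to 19.01 CPM (median 14.4) in striatum MMI libraries, against 18.3 to 32.9 CPM (median 22.5) in striatum WT libraries. In cortex it measured 6.08 to 8.61 CPM (median 7.97) in cortex MMI libraries, against 2.57 to 4.43 CPM (median 3.79) in cortex WT libraries. Its interaction was -1.71 ± 0.17 (adjusted p = 1.49e-08). Ogn, a small leucine-rich proteoglycan of the matrix, had changes of -1.04 ± 0.25 in striatum and 0.95 ± 0.25 in cortex (interaction -1.99 ± 0.35, adjusted p = 0.000266). Other opposite genes came from the lists, among them Reln, Pdyn, Efnb3, Gpr83, Sema3e, Igfbp4, Tagln and Car2.

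**Figure D3:**
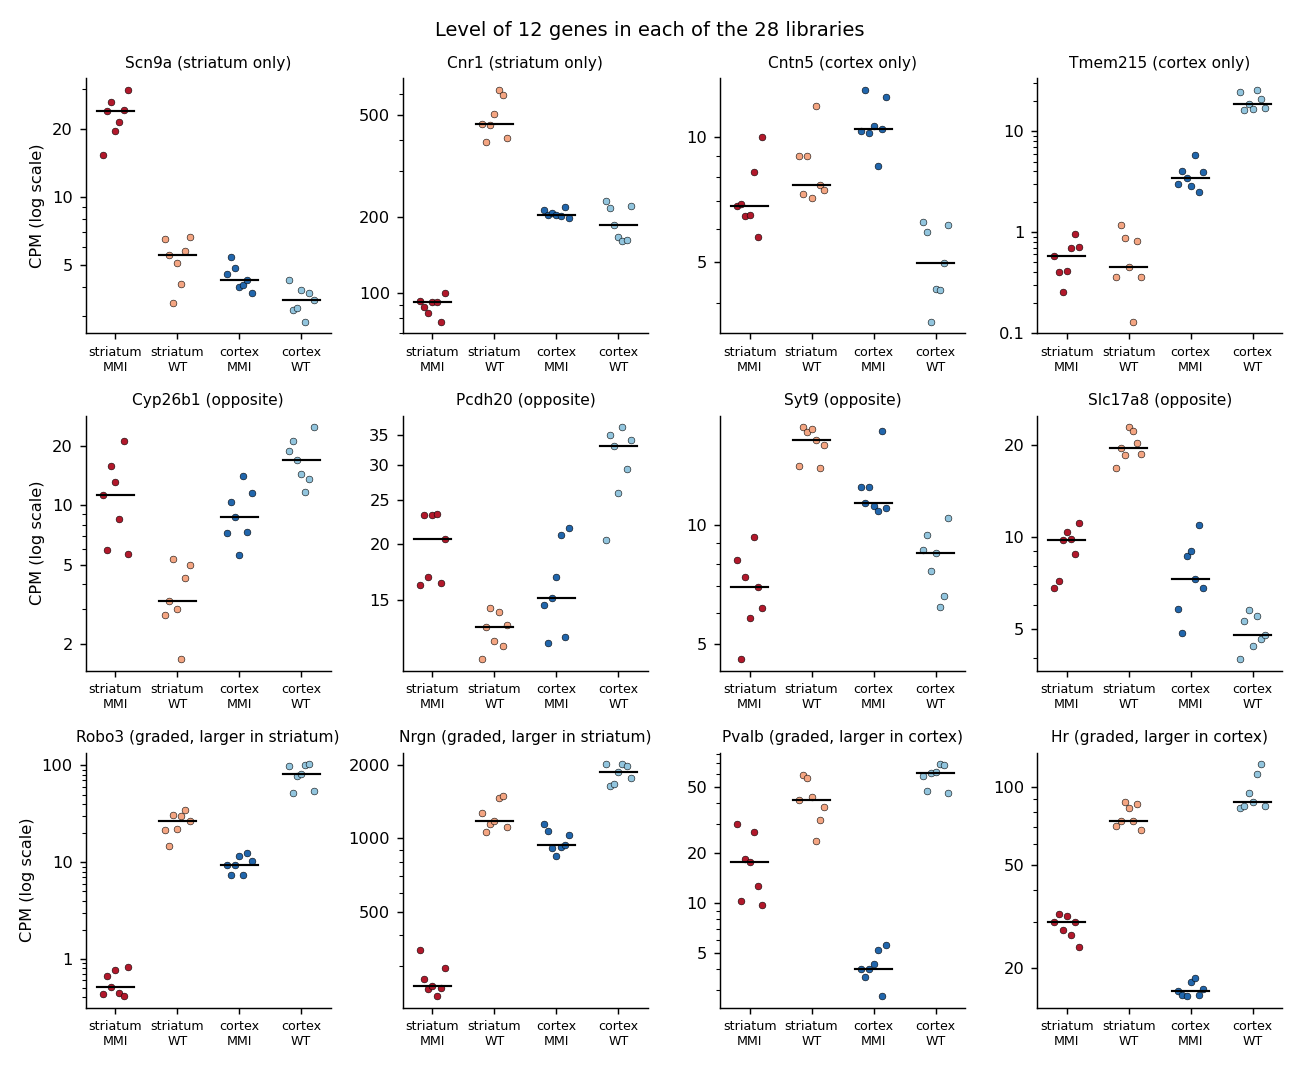
CPM on log scales of 12 genes in each of the 28 libraries, with bars at group medians. Groups run from striatum MMI to cortex WT in each panel; Cnr1 separates MMI from WT in striatum alone, Syt9 moves in opposite directions, and Robo3 and Hr fall in both tissues by different amounts.

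Falls outnumbered rises among the graded responses. Robo3 (ENSMUSG00000032128, chromosome 9, 37415669 to 37433246), an axon guidance receptor, measured 0.411 to 0.822 CPM (median 0.511) in striatum MMI libraries, against 14.6 to 34.9 CPM (median 26.5) in striatum WT libraries. In cortex Robo3 measured 7.28 to 12.5 CPM (median 9.42) in cortex MMI libraries, against 51.4 to 103 CPM (median 82.4) in cortex WT libraries. It fell by 5.46 ± 0.30 in striatum and by 3.07 ± 0.18 in cortex, without overlap in either (interaction -2.39 ± 0.41, adjusted p = 0.000315). Klhl1, an actin-binding kelch protein of neurons, had changes of -2.65 ± 0.13 in striatum and -0.92 ± 0.14 in cortex (interaction -1.73 ± 0.19, adjusted p = 9.51e-08). Cpne9, a calcium-dependent phospholipid-binding copine, had changes of -2.45 ± 0.25 and -0.98 ± 0.18 (interaction -1.47 ± 0.31, adjusted p = 0.00297).

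Prlr, the prolactin receptor, which choroid plexus expresses strongly, measured 0.199 to 1.83 CPM (median 1.48) in striatum MMI libraries, against 8.49 to 32.3 CPM (median 22.6) in striatum WT libraries. In cortex Prlr measured 0.594 to 2.18 CPM (median 1.19) in cortex MMI libraries, against 0.823 to 8.27 CPM (median 3.79) in cortex WT libraries. Its interaction of -2.60 ± 0.72 (adjusted p = 0.0233) did not pass without striatum MMI 1 and 7 (-2.46, adjusted p = 0.053). Of the 17 tested choroid plexus and ependyma genes, 9 fell in striatum (52.9%, against 21.5% of all genes) and 4 in cortex (23.5%, near the 20.2% of all genes), with median changes of -0.70 and -1.02. Prlr and Foxj1, a transcription factor of ciliated cells, were the 2 with an interaction call, and Foxj1 passed in 13 of the 28 fits that left out a library and did not pass with limma voom (0.54, adjusted p = 0.0587). The part of dissected choroid plexus in the change of Prlr was not tested.

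Graded rises larger in striatum were led by Rasgrp4, a Ras activator, at 2.26 to 5.88 CPM (median 3.84) in striatum MMI libraries, against 0.598 to 1.44 CPM (median 0.8999) in striatum WT libraries. In cortex Rasgrp4 measured 1.74 to 3.05 CPM (median 2.18) in cortex MMI libraries, against 0.674 to 1.597 CPM (median 1.12) in cortex WT libraries. Its interaction of 1.15 ± 0.31 (adjusted p = 0.0159) did not pass without cortex WT 8 (0.997, adjusted p = 0.0511). Chrdl1, a secreted antagonist of bone morphogenetic proteins made by astrocytes, measured 15.2 to 24.6 CPM (median 16.8) in striatum MMI libraries, against 4.82 to 9.41 CPM (median 7.05) in striatum WT libraries. Its changes were 1.23 ± 0.13 in striatum and 0.27 ± 0.11 in cortex (interaction 0.95 ± 0.16, adjusted p = 0.000184). Rspo1, an enhancer of Wnt signalling, rose by 1.37 in striatum and 0.41 in cortex (interaction 0.95 ± 0.22, adjusted p = 0.00452). Tnxb, a tenascin of the matrix, had an interaction of 0.97 ± 0.29 (adjusted p = 0.0312), which did not pass when any of 6 single libraries was left out: cortex WT 3 or 4, striatum WT 3 or 8, or striatum MMI 4 or 6 (0.86 to 0.93, adjusted p 0.0508 to 0.0597). It did not pass with limma voom either (0.82, adjusted p = 0.126), nor with the replicate number as a correlation in voom (0.84, adjusted p = 0.0708).

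Pvalb (ENSMUSG00000005716, chromosome 15, 78191114 to 78206400), the calcium buffer of fast-spiking interneurons, fell more in cortex. It measured 9.76 to 30.2 CPM (median 17.7) in striatum MMI libraries, against 23.7 to 59.2 CPM (median 41.8) in striatum WT libraries. In cortex Pvalb measured 2.75 to 5.62 CPM (median 4.02) in cortex MMI libraries, against 46.6 to 68.97 CPM (median 61.2) in cortex WT libraries. The striatal groups overlapped and the cortical groups lay far apart, with changes of -1.22 ± 0.22 in striatum and -3.79 ± 0.26 in cortex (interaction 2.57 ± 0.35, adjusted p = 1.44e-05). Syt2, the calcium sensor of fast release in these cells, measured 41.1 to 65.6 CPM (median 46.1) in striatum MMI libraries, against 57.7 to 90.5 CPM (median 72.4) in striatum WT libraries. In cortex Syt2 measured 4.25 to 11.2 CPM (median 6.98) in cortex MMI libraries, against 45.6 to 71.8 CPM (median 54.5) in cortex WT libraries. Its interaction was 2.48 ± 0.23 (adjusted p = 4.98e-08), and Syt2 overlaps Ppp1r12b on the other strand. Adamtsl5, a secreted matrix protein, fell by 1.45 in striatum and 2.95 in cortex (interaction 1.49 ± 0.24, adjusted p = 6.57e-05).

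Scn4b, the sodium channel beta subunit abundant in striatal projection neurons, shows that a graded response on the log2 scale need not be graded alike in CPM. It measured 638 to 1043 CPM (median 870.3) in striatum MMI libraries, against 1687 to 2257 CPM (median 1763) in striatum WT libraries. In cortex Scn4b measured 3.905 to 23.6 CPM (median 10.9) in cortex MMI libraries, against 66.3 to 143 CPM (median 97.3) in cortex WT libraries. The fall was 1.15 ± 0.22 on the log2 scale in striatum and 2.88 ± 0.27 in cortex (interaction 1.73 ± 0.34, adjusted p = 0.00146), while the difference in CPM was larger in striatum. Summed CPM of the 24 shared markers of medium spiny neurons, Scn4b included, was 2442 to 2839 in cortex MMI, against 2992 to 4104 in cortex WT libraries, and the part of striatal tissue in the cortex libraries in this fall was not tested.

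Graded rises larger in cortex were led by Myoc, a secreted glycoprotein, at 5.35 to 16.7 CPM (median 8.797) in striatum MMI libraries, against 4.32 to 9.92 CPM (median 5.08) in striatum WT libraries, with overlap of the groups. In cortex Myoc measured 14.3 to 27.3 CPM (median 16.8) in cortex MMI libraries, against 3.79 to 8.09 CPM (median 4.48) in cortex WT libraries, without overlap. Its interaction was -1.27 ± 0.33 (adjusted p = 0.0132). Tead2, a transcription factor of the Hippo pathway, rose by 0.70 in striatum and 1.54 in cortex (interaction -0.84 ± 0.16, adjusted p = 0.000442). Cep128, a centriolar protein, rose by 0.35 and 1.19 (interaction -0.83 ± 0.14, adjusted p = 0.000104). The interaction of Rassf9, a Ras-association domain protein, was -0.72 ± 0.23 (adjusted p = 0.0424), and it passed in 15 of the 28 fits that left out a library, with adjusted p up to 0.0949.

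Called markers of striatal projection neurons mostly had negative interactions. Of 24 markers shared by medium spiny neurons, the GABAergic output neurons of the striatum, 22 fell in striatum and 14 in cortex, with median changes of -0.75 and -0.38. Over all genes 21.5% fell in striatum and 20.2% in cortex, and these medians were 0.00044 and 0.0096. An interaction was called for 9 (37.5%, against 8.08% of all genes), 2 positive and 7 negative. Their summed CPM was 11498 to 15493 in striatum MMI, against 19988 to 26325 in striatum WT libraries. Actn2, an actin-binding alpha-actinin of spines, measured 62.1 to 89.1 CPM (median 77.03) in striatum MMI libraries, against 124 to 171 CPM (median 145) in striatum WT libraries. In cortex Actn2 measured 11.9 to 16.8 CPM (median 14.4) in cortex MMI libraries, against 10.5 to 19.1 CPM (median 13.95) in cortex WT libraries. It fell in striatum (-0.95 ± 0.10) with no call in cortex (-0.0092 ± 0.13), and the interaction was -0.94 ± 0.17 (adjusted p = 0.000307). Kcnab1, a potassium channel beta subunit, and Rasgrp2, a Rap activator, fell in both tissues and more in striatum, with interactions of -0.69 ± 0.11 and -0.59 ± 0.13 (adjusted p = 0.000109 and 0.00304). The median position on the tissue axis was 0.899 in striatum MMI, against 1.01 in striatum WT libraries, with overlap. Without striatum MMI 1 and 7 the list had 9 calls, 2 positive and 7 negative. With all 70 libraries in the fit it had 0 calls by edgeR (5 genes at an unadjusted p of 0.05), and Actn2, Kcnab1 and Rasgrp2 did not pass (adjusted p = 0.319, 0.229 and 0.741). With the 68 libraries on their labelled tissue's side of the axis of 425 genes it had 2 positive and 6 negative.

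The 9 tested markers of the direct pathway split by gene, with 1 positive and 3 negative calls (44.4%, against 8.08% of all genes). Pdyn, which encodes the opioid precursor prodynorphin, rose in striatum and fell in cortex. It measured 157 to 199 CPM (median 185) in striatum MMI libraries, against 102 to 157 CPM (median 121) in striatum WT libraries. In cortex Pdyn measured 24.1 to 34.3 CPM (median 28.9) in cortex MMI libraries, against 36.7 to 46.8 CPM (median 40.4) in cortex WT libraries. The groups did not overlap in either tissue, and the interaction was 0.98 ± 0.11 (adjusted p = 2.06e-07). Chrm4, the M4 muscarinic receptor, fell in striatum (-0.61 ± 0.088) and measured -0.069 ± 0.094 in cortex (interaction -0.54 ± 0.13, adjusted p = 0.00666). None of the 7 tested markers of the indirect pathway had an interaction call by edgeR, DESeq2 or limma voom, and 0 of them passed an unadjusted p of 0.05.

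Called genes of the fast-spiking interneuron list mostly had positive interactions. Of 21 tested, 15 fell in each tissue (71.4%, against 21.5% of all genes in striatum and 20.2% in cortex). Median changes were -0.52 in striatum and -0.78 in cortex. An interaction was called for 8 (38.1%, against 8.08% of all genes), 7 positive and 1 negative. Summed CPM of the list was 2647 to 3217 in striatum MMI, against 3498 to 4187 in striatum WT libraries. In cortex it was 2298 to 2490 in MMI, against 3817 to 4489 in WT libraries. The list holds Tac1, also a direct-pathway marker, and the general GABAergic genes Gad1, Gad2 and Slc32a1. Medium spiny neurons are GABAergic, so in striatum these values are not those of fast-spiking interneurons alone. Besides Pvalb and Syt2, Nefh, the heavy neurofilament subunit, measured 22.5 to 42.8 CPM (median 28.9) in striatum MMI libraries, against 31.9 to 62.2 CPM (median 47.2) in striatum WT libraries. In cortex Nefh measured 20.7 to 29.05 CPM (median 21.8) in cortex MMI libraries, against 56.6 to 76.1 CPM (median 67.2) in cortex WT libraries, and its interaction was 0.96 ± 0.20 (adjusted p = 0.00171). Cplx1, a complexin of vesicle release, fell by 0.58 and 0.91 (interaction 0.33 ± 0.069, adjusted p = 0.00146). Hapln4, a link protein of perineuronal nets, the matrix around these cells, had changes of -0.99 ± 0.18 in striatum and -2.39 ± 0.16 in cortex (interaction 1.40 ± 0.24, adjusted p = 0.000276).

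Among 21 markers of other interneurons there were 3 positive and 3 negative calls (28.6%, against 8.08% of all genes). Reln, the secreted guidance protein reelin of Cajal-Retzius cells and interneurons, measured 76.8 to 150.4 CPM (median 123) in striatum MMI libraries, against 129.5 to 196 CPM (median 159.5) in striatum WT libraries. In cortex Reln measured 122 to 155 CPM (median 130.1) in cortex MMI libraries, against 64.97 to 109.7 CPM (median 91.1) in cortex WT libraries. It fell in striatum (-0.41 ± 0.13) and rose in cortex (0.58 ± 0.13), with an interaction of -0.996 ± 0.18 (adjusted p = 0.00064). Npy, neuropeptide Y, measured 0.085 ± 0.082 in striatum and fell in cortex (-0.46 ± 0.081) (interaction 0.55 ± 0.12, adjusted p = 0.00178). Summed CPM of the list was 752 to 879.8 in striatum MMI, against 1109 to 1433 in striatum WT, where Cnr1 makes up much of the sum, and 1202 to 1359 in cortex MMI, against 1268 to 1410 in cortex WT libraries.

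Of 29 cortical excitatory and layer genes, 5 had a positive and 2 a negative call (24.1%, against 8.08% of all genes). Lamp5, a lysosome-associated membrane protein of upper-layer neurons and some interneurons, measured 91.97 to 115 CPM (median 106) in striatum MMI libraries, against 109 to 137 CPM (median 125) in striatum WT libraries. In cortex Lamp5 measured 78.1 to 138 CPM (median 92.9) in cortex MMI libraries, against 181 to 249.8 CPM (median 235) in cortex WT libraries. It measured -0.21 ± 0.095 in striatum and fell in cortex (-1.18 ± 0.095, no overlap) (interaction 0.97 ± 0.13, adjusted p = 9.7e-06). Stard8, a GTPase-activating protein, was similar, with -0.10 ± 0.11 in striatum and -0.999 ± 0.094 in cortex (interaction 0.90 ± 0.15). Pcp4, a modulator of calmodulin, fell more in striatum (-1.66 ± 0.086) than in cortex (-0.62 ± 0.089; interaction -1.04 ± 0.12, adjusted p = 7.15e-07). Calb1, the calcium buffer calbindin, rose in striatum (0.51 ± 0.11) and measured -0.24 ± 0.12 in cortex (interaction 0.75 ± 0.16, adjusted p = 0.00308). Pcp4 and Calb1 did not mark cortex in WT libraries. Pcp4 measured 181 to 249 CPM in striatum WT, against 52.2 to 83.4 CPM in cortex WT libraries. Calb1 measured 109 to 211 CPM in striatum WT, against 134 to 173 CPM in cortex WT libraries. Tbr1 and Neurod6, transcription factors of cortical neurons, had no interaction call (-0.11 ± 0.47 and -0.33 ± 0.41).

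Ion channel genes differed between the tissues in both directions. Of 9 voltage-gated sodium channel genes, 6 (66.7%, against 8.08% of all genes) had an interaction call, 4 positive and 2 negative. Scn9a and Scn4b were among the positive. Scn3a, the alpha subunit that dominates before birth, measured -0.070 ± 0.082 in striatum and rose in cortex (0.43 ± 0.084) (interaction -0.50 ± 0.12, adjusted p = 0.00525).

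Of 53 potassium channel genes, 30 fell in striatum and 35 in cortex (56.6% and 66.0%, against 21.5% and 20.2% of all genes). An interaction was called for 10 (18.9%, against 8.08% of all genes), 5 in each direction. Kcnab3, a beta subunit, measured 8.16 to 15.3 CPM (median 12.5) in striatum MMI libraries, against 12.2 to 22.4 CPM (median 16.3) in striatum WT libraries, with overlap of the groups. In cortex Kcnab3 measured 15.9 to 22.9 CPM (median 18.02) in cortex MMI libraries, against 47.8 to 82.9 CPM (median 65.4) in cortex WT libraries, with an interaction of 1.40 ± 0.21 (adjusted p = 3.56e-05). Kcnk2, the background potassium channel TREK-1, fell mainly in striatum (-0.88 ± 0.067, against -0.17 ± 0.069 in cortex; interaction -0.71 ± 0.096, adjusted p = 3.69e-06). Of 19 calcium channel genes, 8 (42.1%) had a call, 4 in each direction. Cacna2d3 and Cacnb4, auxiliary subunits, fell in cortex, while their striatal groups overlapped (interactions 0.64 ± 0.10 and 0.51 ± 0.096). Cacnb3 fell more in striatum (-0.39 ± 0.077), and Cacna1h, the T-type channel Cav3.2, rose in cortex with no call in striatum (-0.63 ± 0.10).

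Called receptor genes of glutamate and of GABA leaned in opposite directions. All 6 interaction calls among 34 genes of glutamate receptors and scaffolds were negative (17.6%). All 5 among 24 genes of GABA receptors and synthesis were positive (20.8%). Over all genes 8.08% had a call, 3.57% positive and 4.51% negative. Grm8, a presynaptic metabotropic receptor, measured 3.6998 to 7.67 CPM (median 4.603) in striatum MMI libraries, against 8.92 to 15.97 CPM (median 9.88) in striatum WT libraries. In cortex Grm8 measured 16.7 to 24.7 CPM (median 19.5) in cortex MMI libraries, against 12.2 to 20.7 CPM (median 16.6) in cortex WT libraries. The striatal groups did not overlap and the cortical groups did, with -1.16 ± 0.15 in striatum and 0.30 ± 0.13 in cortex (interaction -1.46 ± 0.20, adjusted p = 7.08e-06). Dlgap3, a postsynaptic scaffold prominent in striatum, fell by 0.86 and 0.25 (interaction -0.62 ± 0.097, adjusted p = 3.57e-05).

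Gabra5, the extrasynaptic receptor subunit alpha 5, measured 51.4 to 57.4 CPM (median 53.4) in striatum MMI libraries, against 25.5 to 32.7 CPM (median 27.8) in striatum WT libraries. In cortex Gabra5 measured 61.1 to 84.5 CPM (median 69.2) in cortex MMI libraries, against 47.4 to 74.8 CPM (median 57.2) in cortex WT libraries. It rose in both tissues and more in striatum (interaction 0.63 ± 0.11, adjusted p = 0.000167). Gabrd, the delta subunit of tonic inhibition, fell more in cortex (-0.35 ± 0.062 in striatum, -1.08 ± 0.065 in cortex, interaction 0.73 ± 0.090).

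Genes of transmitter release and second messengers were mixed. Of 34 synaptic vesicle genes, 5 had a positive and 2 a negative call (20.6%). Vamp1, the vesicle fusion protein synaptobrevin 1, measured -0.061 ± 0.13 in striatum and fell in cortex (-1.18 ± 0.13) (interaction 1.12 ± 0.18, adjusted p = 0.000113). Of 37 dopamine receptor and cyclic AMP genes, 8 (21.6%, against 8.08% of all genes) had a call, 4 in each direction. Neither Drd1 (-0.23 ± 0.19) nor Drd2 (0.43 ± 0.39) had one. Rgs4, which shortens G protein signals, fell more in striatum (-1.44 ± 0.13, against -0.53 ± 0.13 in cortex; interaction -0.91 ± 0.18, adjusted p = 0.00149), and Prkar1b, a regulatory subunit of protein kinase A, fell in cortex with no call in striatum (interaction 0.44 ± 0.064, adjusted p = 1.2e-05). Of 26 calmodulin-linked genes, 8 (30.8%) had a call. Among them were Camk2g, the gamma subunit of the calmodulin kinase (interaction 0.60 ± 0.11), and Pcp4l1 (0.70 ± 0.093). Both fell in cortex. In striatum Pcp4l1 fell less, whereas the MMI libraries lay within the range of the WT libraries for Camk2g.

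Of 36 neuropeptide and receptor genes, 6 had a positive and 2 a negative call (22.2%, against 8.08% of all genes). Gpr83, a G protein-coupled receptor of neuropeptides, measured 164 to 188 CPM (median 174) in striatum MMI libraries, against 119.5 to 147 CPM (median 127) in striatum WT libraries. In cortex Gpr83 measured 15.1 to 29.2 CPM (median 18.5) in cortex MMI libraries, against 24.4 to 35.1 CPM (median 29.6) in cortex WT libraries. It rose in striatum (0.41 ± 0.083, no overlap) and fell in cortex (-0.51 ± 0.097), with an interaction of 0.92 ± 0.13 (adjusted p = 7.98e-06). Cartpt, the precursor of the CART peptides, rose in striatum at low levels (1.33 to 2.59 CPM (median 1.72) in striatum MMI libraries, against 0.812 to 1.44 CPM (median 0.902) in striatum WT libraries), and its interaction was 1.09 ± 0.22 (adjusted p = 0.00105).

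Axon guidance ligands and receptors had calls in both directions, 9 positive and 9 negative among 50 genes (36.0%, against 8.08% of all genes). Efnb3, the membrane-bound ligand ephrin-B3, measured 218 to 264 CPM (median 256) in striatum MMI libraries, against 277 to 325 CPM (median 302) in striatum WT libraries. In cortex Efnb3 measured 113 to 143 CPM (median 136) in cortex MMI libraries, against 72.2 to 112 CPM (median 91.2) in cortex WT libraries. The groups did not overlap in either tissue while the directions were opposite, and the interaction was -0.82 ± 0.099 (adjusted p = 5.84e-07). Sema3e, a secreted semaphorin, rose in striatum (0.22 ± 0.086, adjusted p = 0.0442) and fell in cortex (-0.63 ± 0.092), with an interaction of 0.84 ± 0.13 (adjusted p = 2.39e-05). The receptors Ephb1 and Epha5 were one-tissue genes. Ephb1 measured -0.093 ± 0.058 in striatum and fell in cortex (-0.72 ± 0.062) (interaction 0.63 ± 0.084), and Epha5 rose in striatum (0.67 ± 0.071) and measured 0.046 ± 0.066 in cortex (interaction 0.62 ± 0.097).

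Cytoskeletal genes had 1 positive and 8 negative calls among 27 (33.3%, against 8.08% of all genes). Dpysl5, a collapsin response mediator of growing axons, rose in both tissues and more in cortex (0.43 ± 0.065 in striatum, 1.12 ± 0.065 in cortex, interaction -0.69 ± 0.092, adjusted p = 2.51e-06). Mapt, which encodes tau, fell in striatum (-0.33 ± 0.038) and measured -0.019 ± 0.038 in cortex (interaction -0.31 ± 0.054, adjusted p = 0.000145). Stmn4, a stathmin that binds tubulin, fell more in striatum (interaction -0.40 ± 0.077, adjusted p = 0.000562).

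Genes of retinoic acid, another ligand of nuclear receptors, had 1 positive and 3 negative calls among 19 (21.1%, against 8.08% of all genes). The positive one was Cyp26b1. Crabp2, a carrier of retinoic acid, fell in striatum to 0.253 to 1.02 CPM (median 0.574) in MMI libraries, against 1.33 to 3.21 CPM (median 1.95) in WT libraries. Its interaction was -2.22 ± 0.51 (adjusted p = 0.00407), with a cortical estimate of 0.43 ± 0.38. Stra6, a receptor for retinol uptake, measured 0.084 ± 0.14 in striatum and rose in cortex (0.97 ± 0.15) (interaction -0.89 ± 0.20, adjusted p = 0.00349).

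Growth factor genes had 3 positive and 5 negative calls among 32 (25%, against 8.08% of all genes). Igfbp4, a binding protein of insulin-like growth factors, measured 74.9 to 86.2 CPM (median 80.9) in striatum MMI libraries, against 57.04 to 72.4 CPM (median 70.1) in striatum WT libraries. In cortex Igfbp4 measured 58.7 to 72.2 CPM (median 67.7) in cortex MMI libraries, against 81.5 to 112 CPM (median 93.6) in cortex WT libraries. It rose in striatum and fell in cortex without overlap in either (interaction 0.73 ± 0.082, adjusted p = 1.19e-07). Fgf11, an intracellular fibroblast growth factor homologue, rose more in striatum (interaction 0.45 ± 0.12, adjusted p = 0.0101). The call of Fgf11 was lost without striatum MMI 2 and 7 and cortex WT 6 and 9, the 4 libraries extreme in choroid plexus transcripts (0.37, adjusted p = 0.0646).

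All 3 interaction calls among 15 antigen presentation genes (20%, against 8.08% of all genes) were rises in striatum alone. B2m, the light chain of class I molecules, measured 94.2 to 115 CPM (median 103) in striatum MMI libraries, against 57.6 to 81.2 CPM (median 65.5) in striatum WT libraries. In cortex B2m measured 60.2 to 103 CPM (median 77.1) in cortex MMI libraries, against 72.5 to 95.7 CPM (median 75.7) in cortex WT libraries. The striatal groups did not overlap and the cortical ones did (interaction 0.60 ± 0.14, adjusted p = 0.00511). The class I heavy chains H2-D1 and H2-T23 had interactions of 0.61 ± 0.15 (adjusted p = 0.00975) and 0.80 ± 0.19 (adjusted p = 0.00474), and near-identical class I genes can share reads. Of 24 interferon-response genes, 23 rose in striatum and 21 in cortex, where 19.2% and 19.5% of all genes did. Microglial genes rose too, 15 of 18 in striatum and 12 of 18 in cortex. Neither list had an interaction call by edgeR, DESeq2 or limma voom, and 0 of their genes passed an unadjusted p of 0.05. Summed CPM of microglial genes was 895 to 1079 in striatum MMI, against 714 to 879 in striatum WT, and 752 to 886 in cortex MMI, against 595 to 799 in cortex WT libraries.

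Called myelin genes had the lower change in cortex in all but 1 case. Of 28 tested genes of myelin and mature oligodendrocytes, 16 fell in striatum and 25 in cortex. These are 57.1% and 89.3%, against 21.5% and 20.2% of all genes. Their median changes were -0.29 in striatum and -0.74 in cortex. An interaction was called for 18 (64.3%, against 8.08% of all genes), 17 positive and 1 negative. In 9 of these the change was cortex-only, in 8 graded and larger in cortex, and in 1 opposite. Mag, the myelin-associated glycoprotein of the inner myelin membrane, measured 998 to 1576 CPM (median 1369.9) in striatum MMI libraries, against 1146 to 1521 CPM (median 1278) in striatum WT libraries. In cortex Mag measured 162 to 267 CPM (median 223) in cortex MMI libraries, against 279 to 396 CPM (median 309) in cortex WT libraries. It measured 0.084 ± 0.098 in striatum (95% interval -0.12 to 0.28) and fell in cortex without overlap (-0.57 ± 0.10), with an interaction of 0.65 ± 0.14 (adjusted p = 0.00247). Mbp, a main structural protein of myelin, named after its values were seen, had -0.13 ± 0.093 in striatum and -0.66 ± 0.093 in cortex (interaction 0.53 ± 0.13, adjusted p = 0.00859).

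Nkx6-2, a transcription factor of oligodendrocytes, fell in both tissues and more in cortex, at 3.56 to 5.78 CPM (median 4.705) in cortex MMI libraries, against 9.04 to 12.9 CPM (median 10.3) in cortex WT libraries, with an interaction of 0.79 ± 0.14 (adjusted p = 0.000208). Car2, carbonic anhydrase 2, was the 1 negative call, falling in striatum (-0.29 ± 0.060) and rising in cortex (0.22 ± 0.061; interaction -0.51 ± 0.086, adjusted p = 8.82e-05). Summed CPM of the list was 32497 to 44280.5 in striatum MMI, against 39731 to 55188 in striatum WT, and 5779 to 8769.7 in cortex MMI, against 10303 to 13410.4 in cortex WT libraries. The 15 tested genes of oligodendrocyte precursors and newly formed oligodendrocytes had 1 call (6.67%, near the 8.08% of all genes). This was the cortex-only rise of the matrix proteoglycan Vcan (interaction -0.34 ± 0.11, adjusted p = 0.0473). It passed in 9 of the 28 fits that left out a library. With all 70 libraries in the fit the myelin list had 1 call. With the 68 libraries that lay on their labelled tissue's side of the axis of 425 genes it had 16 positive and 1 negative.

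**Figure D4:**
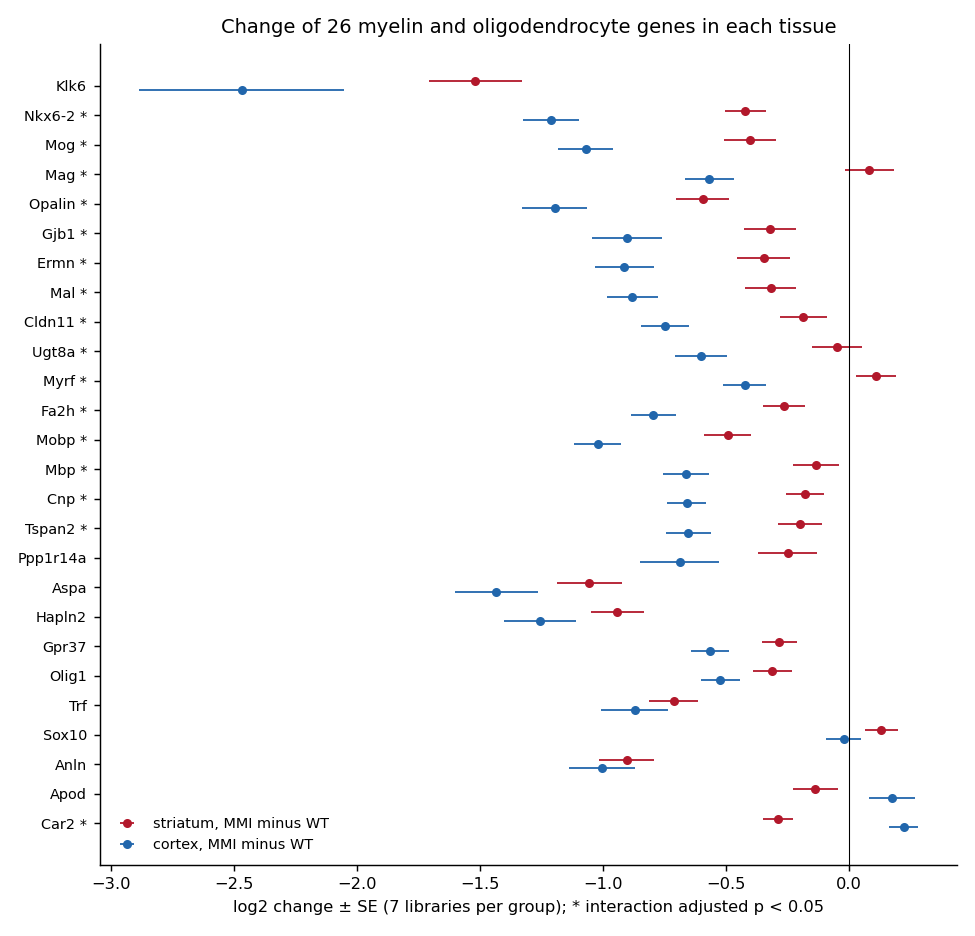
Log2 change ± SE (MMI minus WT, 7 libraries per group) of 26 of the 28 tested myelin and mature oligodendrocyte genes in striatum (red) and cortex (blue), ordered by the interaction, with asterisks at their 16 interaction calls. The cortical change was the lower of the pair for all but Apod and Car2.

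Extracellular matrix genes had 5 positive and 4 negative calls among 33 (27.3%). Col11a1, a fibrillar collagen chain, was cortex-only, with -0.31 ± 0.18 in striatum and -1.39 ± 0.18 in cortex (interaction 1.08 ± 0.25, adjusted p = 0.00577), and Lamb1, a laminin chain, rose more in cortex (interaction -0.62 ± 0.11, adjusted p = 0.000154). Of 14 perineuronal net genes, 3 had a call (21.4%, against 8.08% of all genes). Beside Hapln4 and Vcan this was Crtac1, a matrix protein, with -0.076 ± 0.058 in striatum and -0.39 ± 0.056 in cortex (interaction 0.31 ± 0.080, adjusted p = 0.0108). Of 26 genes of progenitors and immature neurons, 2 had a negative call (7.69%, near the background), among them Cd24a, a surface glycoprotein of young neurons, with -0.075 ± 0.085 in striatum and 0.47 ± 0.090 in cortex (interaction -0.54 ± 0.12, adjusted p = 0.00364).

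Astrocyte calls ran in both directions and those of mural and leptomeningeal genes were negative. Of 25 astrocyte genes, 4 had a call (16%, against 8.08% of all genes), 1 positive and 3 negative, Kcnj10 being the positive one. Grin2c, an NMDA receptor subunit of astrocytes, and Gli3, a transcription factor of hedgehog signalling, fell in striatum with no call in cortex (interactions -0.50 ± 0.11 and -0.61 ± 0.15). Of 22 mural and leptomeningeal genes, 3 (13.6%) had a call. With all 70 libraries in the fit edgeR gave 2 astrocyte calls and 0 mural and leptomeningeal calls (4 genes of each list at an unadjusted p of 0.05). Tagln, an actin-binding protein of smooth muscle, fell in striatum (-0.65 ± 0.10) and rose in cortex (0.35 ± 0.12; interaction -1.01 ± 0.16, adjusted p = 4.02e-05). Mgp, matrix Gla protein, fell in striatum, and Igf2, insulin-like growth factor 2, rose in cortex, with interactions of -1.18 ± 0.31 and -0.99 ± 0.26 (adjusted p = 0.0149 and 0.017). The call of Igf2 was lost with the replicate number as a block (adjusted p = 0.0533) and with the 68 libraries (0.0542). That of Mgp was lost with the 68 libraries (adjusted p = 0.0709) and without the 4 libraries extreme in choroid plexus transcripts, striatum MMI 2 and 7 and cortex WT 6 and 9 (0.0732). The summed CPM of this list was 393 to 587 in striatum MMI, against 469 to 599 in striatum WT, and 489.6 to 796 in cortex MMI, against 359 to 612 in cortex WT libraries.

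Housekeeping pathways held few interaction calls. All 46 nuclear-encoded respiratory chain genes fell in striatum and 44 of them in cortex, with median changes of -0.30 and -0.26 and no interaction call by edgeR, DESeq2 or limma voom (1 at an unadjusted p of 0.05). Among 27 genes of cholesterol synthesis and uptake, 22 fell in each tissue, and 1 had an interaction call (3.70%, against 8.08% of all genes). Over all genes 21.5% fell in striatum and 20.2% in cortex. Lists of ribosomal proteins, immediate early genes, endoplasmic reticulum stress, the circadian clock, endothelial cells, blood and mitochondrially encoded genes had no interaction call by edgeR, DESeq2 or limma voom. At an unadjusted p of 0.05 they held 0 (blood and mitochondrially encoded) to 4 (immediate early) genes. Of 22 glycolysis genes, Pfkp, a phosphofructokinase, and Eno1, an enolase, fell in striatum with no call in cortex (interactions -0.35 ± 0.061 and -0.30 ± 0.070). Single calls came from the chaperone Hsp90ab1 among 16 heat shock genes (interaction -0.20 ± 0.058, passing in 25 of the 28 fits that left out a library), from the cell cycle inhibitor Cdkn1a among 20 glucocorticoid-responsive genes (0.53 ± 0.12) and from Nts among 17 markers of neighbouring brain regions. All 6 tested blood genes fell in both tissues, with summed CPM of 126 to 171 in striatum MMI, against 214 to 411 in striatum WT, and 102 to 118 in cortex MMI, against 178 to 312 in cortex WT libraries.

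**Figure D5:**
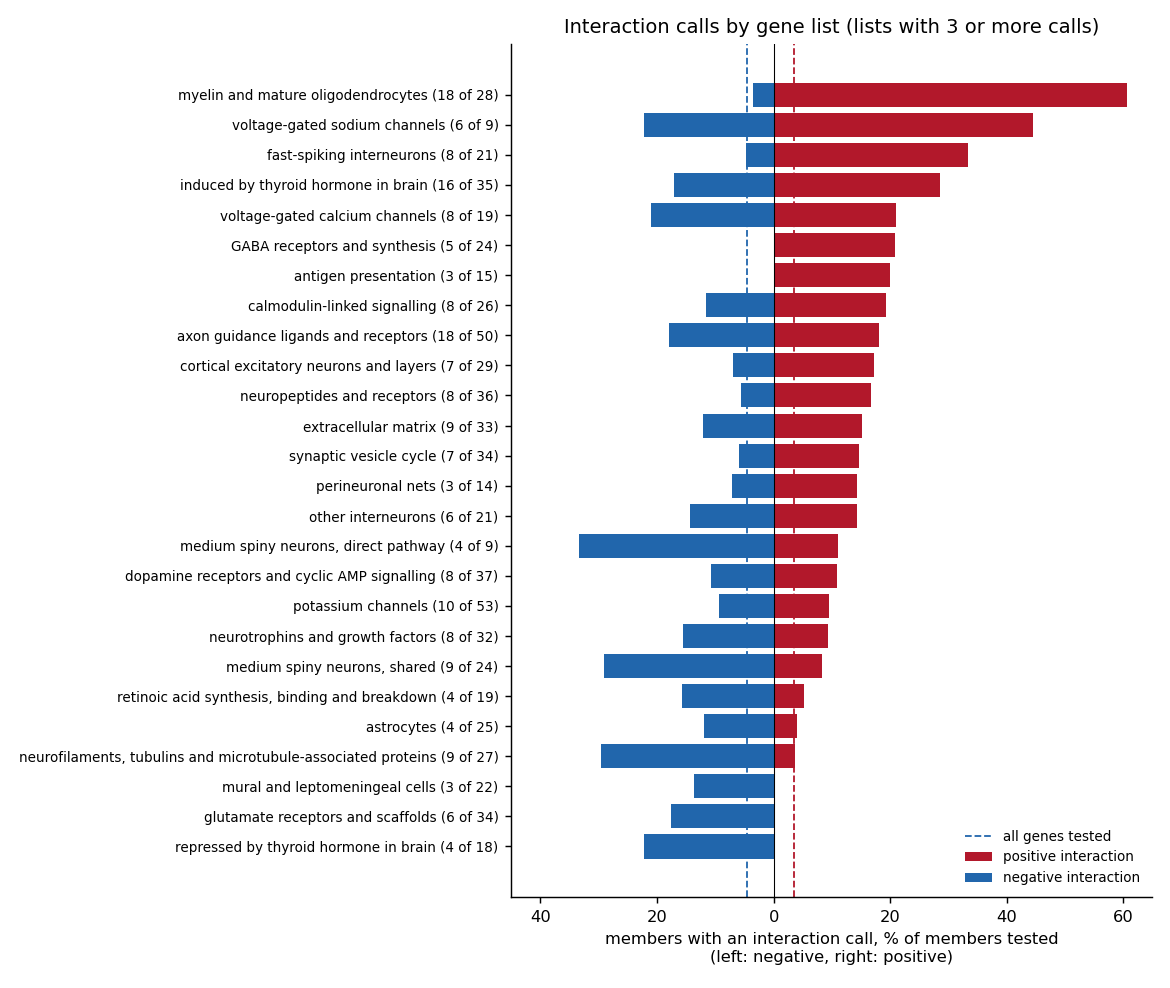
Share of tested members with a positive (red, right) or negative (blue, left) interaction call for the 26 lists with 3 or more calls, as a percentage of members tested. Dashed lines mark the shares over all genes, 3.57% positive and 4.51% negative; the longest bar is that of the 17 positive calls among 28 myelin genes.

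Genes whose level differs between the tissues carried more interaction calls. The tissue difference was taken from the WTa wild-type libraries, which take no part in the interaction. Of 1234 genes at least 2-fold higher in striatum, 248 (20.1%) had an interaction call, 98 positive and 150 negative. Of 1041 genes at least 2-fold higher in cortex, 180 (17.3%) had one, 139 positive and 41 negative. Among the other 14082 genes 894 (6.35%) had one, 347 positive and 547 negative. Negative calls thus outnumbered positive ones among striatum-enriched genes in about the proportion seen among genes under 2-fold apart, whereas among cortex-enriched genes positive calls outnumbered negative ones. On the tissue axis the median striatum MMI library lay nearer to cortex than the median striatum WT library (0.899, against 1.01), and the groups overlapped. The part of dissection in these calls was not tested. Leaving out striatum MMI 1 and 7, the 2 nearest to cortex, gave 1295 interaction calls, 564 positive and 731 negative, of which 1155 were among the 1322.

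Promoters of the named genes were searched for AGGTCA, the half-site that thyroid hormone receptors and other nuclear receptors bind, on either strand (TGACCT on the printed one). RefSeq windows on GRCm38.p6, from 250 bases before to 50 after the start, were used for the 9374 tested genes with 1 window each. The half-site lay in 11.7% of them, in 14.8% of 216 striatum-only genes, 8.04% of 224 cortex-only genes and 5.63% of 71 opposite genes. Of the graded genes it lay in 12.9% of 101 that were larger in striatum and 10.8% of 65 that were larger in cortex. No window held AGGTCA, or its reverse complement, 2 times in the same orientation with 4 bases between. Of the 40 leading genes named by class, 28 had such a window and 3 held the half-site. These were Oxtr, Tnxb and Adamtsl5, with striatal changes of 1.45 ± 0.12, 1.95 ± 0.21 and -1.45 ± 0.15. Their windows follow, 5′ to 3′ on the gene's strand, because they show how the same letters stand before genes of different response. Capitals mark the half-site in either orientation. A match describes the letters alone, and binding was not measured.
Oxtr (chr6:112489776-112490075, minus strand): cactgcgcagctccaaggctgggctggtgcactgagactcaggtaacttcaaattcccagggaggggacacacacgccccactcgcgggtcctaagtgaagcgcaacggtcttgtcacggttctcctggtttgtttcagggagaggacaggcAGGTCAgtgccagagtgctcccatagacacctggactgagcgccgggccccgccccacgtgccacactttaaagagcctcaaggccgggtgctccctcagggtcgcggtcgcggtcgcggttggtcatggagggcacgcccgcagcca
Tnxb (chr17:34670285-34670584, plus strand): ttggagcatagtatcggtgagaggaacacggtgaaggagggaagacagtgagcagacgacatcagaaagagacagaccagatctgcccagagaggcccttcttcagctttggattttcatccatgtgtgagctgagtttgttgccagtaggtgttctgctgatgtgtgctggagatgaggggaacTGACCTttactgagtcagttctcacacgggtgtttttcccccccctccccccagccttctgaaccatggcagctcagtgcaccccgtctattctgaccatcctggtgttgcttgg
Adamtsl5 (chr10:80348399-80348698, minus strand): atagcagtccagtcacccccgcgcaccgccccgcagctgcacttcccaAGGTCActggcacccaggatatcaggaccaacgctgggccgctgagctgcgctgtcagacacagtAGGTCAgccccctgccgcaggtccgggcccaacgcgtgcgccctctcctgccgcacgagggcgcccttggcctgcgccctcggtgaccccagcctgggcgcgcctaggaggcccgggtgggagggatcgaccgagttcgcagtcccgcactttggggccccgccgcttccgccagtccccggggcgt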

How the data were processed

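RNA from striatum and cortex was sequenced as single reads with an unstranded kit, per the labels' protocols. The authors deposited whole-number counts of reads for each gene. The submitters' processing notes name CASAVA, FastQC, Bowtie, TopHat, HTSeq, edgeR and the build GRCm38, with no versions. The tables held 38293 gene lines and 5 closing lines for unassigned reads, which stayed out of totals and tests. Symbols and coordinates came from GENCODE M21 on GRCm38, which matched 36429 identifiers.

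Groups came from the labels. Genes passing edgeR's count filter (16357) were fitted with edgeR 4.0.16 (R 4.3.3) over the 28 libraries, with TMM scaling, no covariate and the quasi-likelihood test, and p-values were adjusted by Benjamini and Hochberg. The 3 contrasts were MMI minus WT in striatum, the same in cortex, and their difference. Intervals are 95% and unadjusted. The common biological coefficient of variation was 0.0893. The fit was also run on simulated counts of independent libraries with few changed genes. That run cannot show its error rate here, where far more genes changed.

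Genes were named by rule: per class and direction the 4 largest interactions (mean of at least 2 CPM, at least 6 of 7 MMI libraries beyond the WT mean), up to 4 called members per list by p, and fixed hormone and tissue marker genes. A few list members beyond the rule were named after their values were seen, and some genes that the rule names are not reported here. The comparison, the 47 lists and the rule were chosen with earlier results of these data known.

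Alternatives were DESeq2 1.42.0, its size factors, limma 3.58.1 voom, no filter, other library sets, thinning, a stricter threshold, each library left out, and the replicate number as a block.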

Additional observations from a re-analysis of the deposited data

Results flagged for a closer look

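Within groups of 7 libraries, a lowest or highest value that stood apart was looked for by Dixon's criterion in 252 groups of values (library measures, and log2 CPM of the 40 leading genes named by class). It was met in 8 groups, which is 3.17% and below the 1 in 20 that chance gives. Summed CPM of cortical excitatory genes was 4414 in cortex WT 6, against 5312 to 5625 in the other cortex WT libraries.

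In striatum MMI 7, Pde11a was 0.456 log2 CPM, against 1.69 to 2.13 in the other 6 libraries, and Chrdl1 was 4.63, against 3.94 to 4.15. Syt9 was 4.13 in cortex MMI 6, against 3.46 to 3.66 in the others. Cpne9 was 5.43 in cortex MMI 1, against 4.80 to 5.07. Adamtsl5 was -0.763 in cortex MMI 3, against -0.183 to 0.222. Prlr was 3.11 in striatum WT 1, against 4.30 to 5.02, and Tead2 was 1.78 in striatum WT 7, against 2.18 to 2.45. The interactions of these 7 genes passed edgeR's quasi-likelihood test (adjusted p under 0.05) in all 28 fits that left out a library.

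The hypothyroid changes of the tissues differed by the interaction test for 1322 genes, 584 with the higher change in striatum and 738 with the lower. Among them 62 rose in striatum and fell in cortex, and 78 fell in striatum and rose in cortex.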

How the results depend on the processing

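Interaction calls numbered 1285 with DESeq2's size factors, 1431 with DESeq2, 1143 without the filter, 1114 after thinning to 8660325 counts, 1321 with limma voom and 1180 to 1405 with a library left out, and 1141 to 1233 of the 1322 genes were called again when one was left out. With all 70 libraries in the fit, calls fell to 418 (172 positive, 246 negative), with 4123 genes called in striatum, 4064 in cortex, 165 striatum-only, 129 cortex-only, 48 opposite, 50 and 23 graded (larger in striatum and in cortex) and 3 called in neither tissue. The common coefficient of variation was then 0.153. Lists with 3 or more calls all had fewer in that fit, with 1 against 18 for myelin, 5 against 18 for axon guidance, 11 against 16 for hormone-induced genes, 1 against 8 each for calcium channels, neuropeptides and growth factors, and by edgeR 0 for hormone-repressed, shared medium spiny neuron and mural genes (6, 5 and 4 at an unadjusted p of 0.05). Beside genes given in the report as lost, the named genes that did not pass in it were Adam33, Cacna1h, Cacna2d3, Cacnb3, Cdkn1a, Chrm4, Cpne9, Eno1, Epha5, Ephb1, Fgf11, Foxj1, Gli3, Gpr83, H2-T23, Hsp90ab1, Igf2, Itga8, Mgp, Myoc, Pcp4l1, Pfkp, Prkar1b, Prlr, Rassf9, Stard8, Stmn4, Tagln and Vcan. Of these, Cacna1h, Foxj1, Hsp90ab1, Igf2, Mgp, Rassf9, Stmn4 and Vcan did not pass with the 2 libraries described next left out. The axis for all 70 libraries had 425 genes and averaged the position over genes, so its values are not on the scale of the axis of 427 genes. Of 2 libraries of the MctOatp KO line, the one labelled cortex lay at 0.873 on it and the one labelled striatum at -0.0555. Without them, a choice made after seeing the data, there were 839 calls (443 negative), 256 cortex-only, 85 opposite, 105 and 77 graded and 3 in neither, and the coefficient was 0.126. At an adjusted p under 0.01 there were 691 calls (303 positive, 388 negative), 274 striatum-only, 213 cortex-only, 61 opposite, and 80 and 51 graded. The smallest class, genes called in neither tissue, held 10 genes, and 18 with DESeq2, 16 without the filter, 19 with each tissue fitted alone, 6 after thinning, 6 with limma voom, and 3 to 14 with a library left out.

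Leaving out striatum MMI 1 and 7 gave 1295 calls, and leaving out striatum MMI 2 and 7 and cortex WT 6 and 9 gave 1302, both chosen after seeing the data. Without those 4 libraries the uncalled interactions of Dio2 (-0.012), Drd2 (-0.047) and Klf9 (0.010) changed sign. So did that of Dio3 after thinning (-0.45). With a library left out, Dio3 ranged from -0.21 to 0.63, Klf9 from -0.077 to 0.032 and Tbr1 from -0.55 to 0.27. The cause was not tested.

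The labels do not say whether same-numbered striatum and cortex libraries came from 1 animal. Deviations of same-numbered libraries correlated at 0.0283 to 0.237 (median 0.142) in MMI and 0.00921 to 0.374 (median 0.155) in WT. Libraries of other numbers had medians of -0.0238 and -0.0192. Of 7 pairs, 4 and 6 were over 0.1, and 4 and 5 of 7 striatum libraries correlated best with their own number. Same-numbered libraries were more alike by these medians, and whether they came from 1 animal was not tested. The main fit takes all 28 libraries as independent. With the replicate number as a block there were 1646 calls (729 positive, 917 negative). In limma voom with the block as a correlation there were 1779 calls, 57 of them in neither tissue.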
